A study of Mus musculus with 13 samples.

Results

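Kinesins are motor proteins that hydrolyse ATP to move along microtubules or to take their ends apart. In an oocyte the mitotic members of the family build the meiotic spindle, move chromosomes and organise the midzone from which the polar body is cut off, while other members carry vesicles and organelles or serve the cilium. A fully grown oocyte relies on stored mRNA during maturation, and part of that control runs through cytoplasmic polyadenylation, in which the CPEB protein binds U-rich elements near the 3′ end of an mRNA.

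The kinesin genes were taken by symbol, as every gene of the count tables named Kif followed by a number and at most 1 letter from a to c, or Kifc followed by a number. The rule gave 41 genes of 18939, and it used no measured value. Some motors fall outside it by name, such as Cenpe, which is counted here among the partners of kinesins. The 41 genes were sorted from general knowledge into 10 spindle and chromosome kinesins, 4 cytokinesis kinesins, 12 transport kinesins, 10 cilium kinesins and 5 others.

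The study asked how mouse oocytes differ when their germinal vesicle (GV, the large nucleus of the oocyte in prophase) has chromatin gathered around the nucleolus (SN, surrounded nucleolus) or not (NSN, non-surrounded nucleolus). At GV there were libraries of 3 NSN and 3 SN oocytes, and at MII (arrest in metaphase of the second meiotic division) libraries of 3 oocytes matured from NSN oocytes, called NSN-MII, and of 4 matured from SN oocytes, called SN-MII. All oocytes came from C57BL/6 females of 3 to 4 weeks, 48 h after PMSG, were injected with mRNA for fibrillarin tagged with GFP (FBL–GFP) and, in the study's description of its GV oocytes, for H2B-mCherry, were held at GV with cilostamide (10 µM in the collection medium) for 6 h, and were typed by their FBL–GFP pattern, so no group was uninjected. In the study's description oocytes were matured in culture after release from cilostamide, so the stages differ in that culture as well. Each library is 1 oocyte and was used as a replicate, and nothing in the labels says which oocytes came from the same female, so the p-values measure the spread between these oocytes only.

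Library totals ran from 7140416 to 8846287 estimated counts, and kinesins took between 0.315% and 0.425% of a library's counts. Oocyte markers summed to 13338 to 18935 FPKM (a level per kilobase of gene length, scaled to library size) in GV and 9960 to 12913 in MII oocytes. Gdf9 had group means of 2809 to 5733 FPKM. The other markers did not share 1 direction between the stages. Dppa3 averaged 2670 in NSN GV and 2502 in SN GV oocytes, against 3532 in NSN-MII and 3378 in SN-MII oocytes. Kit averaged 73.1 and 79.2 at GV, against 143 and 161 at MII, in the same order. Zp3 and Figla were among those lower at MII. Zp3 averaged 3165 in NSN GV and 2643 in SN GV oocytes, against 183 in NSN-MII and 193 in SN-MII oocytes. Figla averaged 63.3 and 47.1 at GV, against 3.23 and 2.01 at MII, in the same order. Of 13 cumulus and granulosa cell markers Foxl2 and Lhcgr were at 0 in every library. The summed FPKM of those 13 markers was 27.9 to 38.1 in GV and 39.8 to 65.1 in MII oocytes, most of it Cyp19a1 and Nr5a2, and the part of such cells in the kinesin values was not tested. Of 5 theca and stroma markers the sum stayed at or under 4.67 FPKM, and Ptprc, the 1 blood marker in the files, reached 0.17. The second NSN GV library was the lowest of the 6 GV libraries for 12 of 30 kinesins, and the third NSN-MII library, which also had the fewest genes detected (11593), was the lowest of the 7 MII libraries for 9 of 30.

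The 3′ ends of kinesin mRNAs are shown first, because the libraries were primed on poly(A) tails: between GV and MII oocytes, a longer tail and more mRNA cannot be told apart. The sequences are 30-base windows of GENCODE M21 transcripts on GRCm38, 5′ to 3′ on the strand of the gene. Capitals mark a cytoplasmic polyadenylation element (CPE, TTTTAT or TTTTAAT) or a polyadenylation signal (AATAAA or ATTAAA). Kif18a (chr2:109341707-109341736, plus strand) and Kif20b (chr19:34975701-34975730, plus strand) had a CPE and rose between GV and MII. Kif11 (chr19:37421830-37421859, plus strand) and Kifc1 (chr17:33875712-33875741, minus strand) had a CPE and were not called. Kif23 (chr9:61917285-61917314, minus strand) and Kif2c (chr4:117159643-117159672, minus strand) are the most abundant riser and the most abundant faller for which a signal but no CPE was found.
Kif18a: aataTTTTATtacttggtatATTAAAgatg
Kif20b: tatataaTTTTAATtcAATAAAtatatcag
Kif11: aattttttaaATTAAAttaTTTTAATtttt
Kifc1: gttgagacatgaTTTTATtgggtgaacaat
Kif23: caaaacaactgaAATAAAaaggcactaaga
Kif2c: gctgtacctaacAATAAAgaaagaagaaaa

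The CPE began 16 bases before the signal in Kif18a, 9 before it in Kif20b and 40 before it in Kifc1, whose signal lies outside the printed window. In Kif11 it began 9 bases after the signal. Over the last 100 bases of 1 transcript a gene, read on the sense strand only, a CPE was found in 20.1% of 10671 tested genes, in 29.7% of those that rose between GV and MII, in 11.1% of those that fell and in 20.2% of those not called. Among kinesins it was found in 7 of 28 (25.0%), which were 2 of 13 that rose (Kif18a and Kif20b), 2 of 4 that fell (Kif9 and Kif27) and 3 of 11 not called. Kif17 and Kif22, which fell, have annotated 3′ UTRs of 65 and 62 bases and were left out of these shares. A match is a description of the letters, and the annotated 3′ end may not be the one used in the oocyte.

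Most kinesin mRNA in these oocytes belonged to the machinery of spindle and cytokinesis. By mean FPKM over the 13 libraries, 13 kinesins were at 10 or above, 12 between 1 and 10, and 16 under 1. Kif23 (chr9:61915905-61946774), the motor of the centralspindlin complex that bundles the spindle midzone, led with 864 FPKM, above 99.4% of the genes tested over all 13 libraries. It was followed by Kif22 (chr7:127027729-127042471) at 136, a chromokinesin also called Kid that pushes chromosome arms away from the poles, and by Kif20a (chr18:34624613-34633277) at 108, which brings the chromosomal passenger complex to the midzone. Kif20b (chr19:34922361-34975745), which acts late in cytokinesis, averaged 92.9, and the centromeric depolymerase Kif2c (chr4:117159639-117182639), also called MCAK, 71.8. Kif4 at 71.1, Kif17 at 68.6, Kif3a at 51.0, Kif18a at 43.8 and Kifc3 at 26.4 came next.

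Levels between genes depend on the length RSEM assigned to each gene. The ratio of TMM-scaled CPM (counts scaled to library size, not to length) to FPKM, which stands for that length in kb, was 1.41 at GV for Kif23 against 2.09 for Kif22 and 4.63 for Kif4. It also moved between stages for some genes, from 1.13 to 1.88 for Kif15 and from 4.51 to 2.24 for Kif13b, against a shift from 1.41 to 1.55 for Kif23, so FPKM and counts give different changes for Kif15 and Kif13b.

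At the other end, 11 kinesins were not tested in any comparison, and none of them exceeded 15 counts in a library. Kif12, Kif2b, Kif6 and Kif7 were at 0 in every library, and Kif1a, Kif28, Kif1c, Kif26a, Kifc2, Kif5a and Kif19a had a count in at least 1. Kif2b is a microtubule depolymerase related to Kif2a and Kif2c. Kif1a and Kif5a are motors of neurons, and Kif6, Kif7 and Kif19a serve cilia. Each library had a count for between 29 and 35 of the 41.

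**Figure D1:**
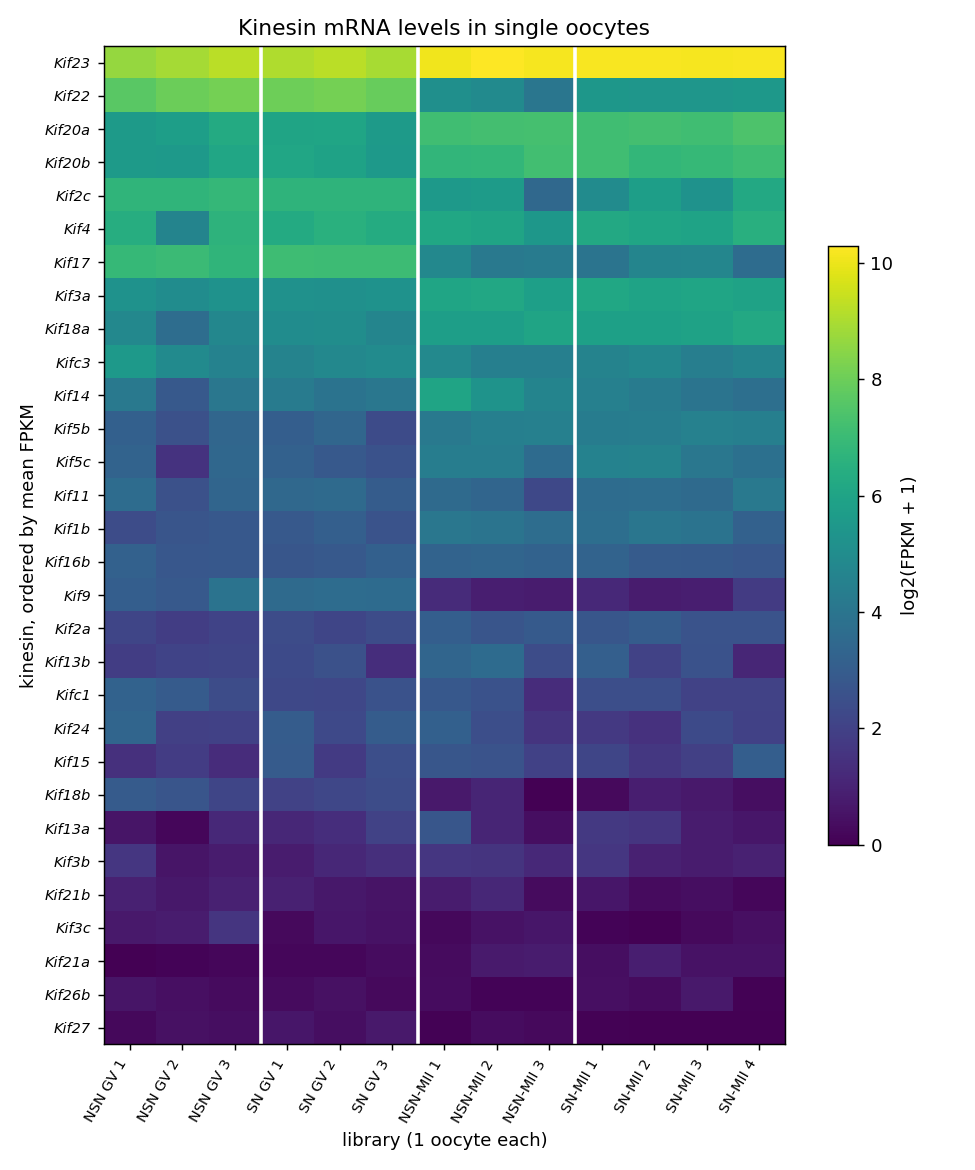
Levels of the 30 tested kinesins as log2(FPKM + 1), colour scale, with 1 column for each single-oocyte library grouped by type and stage and rows ordered by mean FPKM over all libraries. Kif23 is the brightest row at both stages, Kif22, Kif17, Kif2c and Kif9 are darker in MII than in GV oocytes, and the second NSN GV library is darker than the other GV libraries for Kif4, Kif14, Kif18a and Kif5c.

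Between the GV and MII stages the kinesins split, with 13 of 30 higher and 6 lower at MII (edgeR's quasi-likelihood test, Benjamini-Hochberg adjusted p under 0.05 over all genes). These are 63.3% of the tested kinesins, against 68.6% of 11375 genes called in this comparison, 31.7% of all genes being higher and 36.9% lower. Kif21a, counted as higher, passed the filter on low counts among the MII libraries alone and not among the GV libraries alone. Kif27, counted as lower, passed it at GV and not at MII. The filter favoured the direction of these calls, so they are counted here but give no evidence of direction. The median log2 fold change was 0.40 over the 30 kinesins and -0.10 over all genes tested. The libraries were scaled to each other without a spike-in, so these are changes relative to the rest of the mRNA. For 15 of the 30, the CPM of GV and MII oocytes did not overlap, which holds for 47.4% of all genes.

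All 4 cytokinesis kinesins were higher at MII, where 31.7% of all genes were. Kif23 was at 408 to 599 FPKM (median 517) in 6 GV oocytes and at 1065 to 1259 (median 1163) in 7 MII oocytes. The stages lay far apart, with every MII oocyte above every GV oocyte, and the log2 fold change was 1.29 (SE 0.14, adjusted p = 4.03e-07). Kif20a went from 47.7 to 76.8 FPKM (median 58.7) at GV to 141 to 171 (median 149) at MII, a log2 fold change of 1.47 (SE 0.17, adjusted p = 9.28e-07). Kif20b went from 45.5 to 68.2 FPKM (median 54.5) to 109 to 144 (median 120), a log2 fold change of 1.39 (SE 0.20, adjusted p = 9.35e-06). For both genes, too, the lowest MII oocyte was above the highest GV oocyte. Kif14, a midbody motor that binds citron kinase and Prc1, overlapped between the stages, at 6.38 to 18.6 FPKM in GV and 12.7 to 63.5 in MII oocytes, with medians of 15.995 and 21.5. Its log2 fold change of 0.70 (SE 0.23, adjusted p = 0.0111) was 0.51 (adjusted p = 0.0620) without the first NSN-MII library, which held its highest value.

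The spindle and chromosome kinesins went both ways, as all genes did, with 3 of 9 tested higher and 3 lower. Of all genes 31.7% were higher and 36.9% lower. Kif18a, which limits the length of kinetochore microtubules, rose from 11.9 to 31.9 FPKM (median 26.6) at GV to 53.5 to 72.6 (median 56.1) at MII, a log2 fold change of 1.40 (SE 0.19, adjusted p = 6.26e-06). Kif2a, a depolymerase at spindle poles, rose by 0.96 on the log2 scale (SE 0.17, adjusted p = 8.65e-05), from a mean of 3.54 ± 0.647 FPKM (SD, n = 6) to 6.08 ± 0.935 (SD, n = 7). Kif15, a plus-end motor that can back up Kif11, had a log2 fold change of 1.15 (SE 0.33, adjusted p = 0.00588) by counts. By FPKM it was 0.38 with limma on log2(FPKM + 1) (adjusted p = 0.213), and the GV and MII oocytes overlapped.

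Kif22 fell the furthest among abundant kinesins. It was at 204 to 283 FPKM (median 257) in GV oocytes and at 15.7 to 43.7 (median 41.0) in MII oocytes, with a log2 fold change of -2.80 (SE 0.17, adjusted p = 4.29e-10). Kif2c was tightly grouped at GV, at 102 to 114 FPKM (median 105), and spread out at MII, at 10.1 to 72.8 (median 47.0), with a log2 fold change of -1.23 (SE 0.27, adjusted p = 0.000740). The third NSN-MII library held its lowest value, and without that library the log2 fold change was -1.05 (adjusted p = 0.000224). Kif18b, which limits astral microtubules, dropped from 3.08 to 6.73 FPKM (median 3.95) to 0 to 1.09 (median 0.63), a log2 fold change of -2.91 (SE 0.49, adjusted p = 5.66e-05).

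So 2 close relatives, Kif18a and Kif18b, and 2 depolymerases of 1 subfamily, Kif2a and Kif2c, moved in opposite directions. Kif4, a chromokinesin of the arms, was not called, with a log2 fold change of -0.05 (95% interval -0.51 to 0.42). Kif11, the plus-end motor that keeps the spindle bipolar, had 0.32 (SE 0.24, adjusted p = 0.237), and Kifc1, a minus-end motor that focuses poles, -0.19 (SE 0.30, adjusted p = 0.585).

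Of 7 tested transport kinesins 4 rose and none fell, where 31.7% of all genes rose and 36.9% fell. Kif5b, the conventional kinesin heavy chain of most tissues, was at 4.17 to 9.59 FPKM (median 7.66) at GV and 16.7 to 21.9 (median 20.5) at MII, a log2 fold change of 1.70 (SE 0.21, adjusted p = 2.55e-06). Its paralog Kif5c, at 1.87 to 9.73 FPKM (median 7.33) and 11.2 to 23.6 (median 19.3), had a log2 fold change of 1.74 (SE 0.26, adjusted p = 1.66e-05). Neither gene overlapped between the stages. Kif1b, a motor for mitochondria and vesicles, rose from a mean of 5.85 ± 1.12 FPKM (SD, n = 6) to 13.2 ± 2.67 (SD, n = 7), by 1.33 on the log2 scale (SE 0.17, adjusted p = 2.38e-06). Kif16b, a motor of early endosomes, had a log2 fold change of 0.59 (SE 0.16, adjusted p = 0.00392) by counts, and 0.19 (adjusted p = 0.292) by limma on log2(FPKM + 1). Kif13a, Kif13b and Kifc3 were not called.

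Of the 7 tested cilium kinesins 3 fell and 1 rose, where 36.9% of all genes fell and 31.7% rose. Kif17 (chr4:138250435-138301967), a homodimeric kinesin-2, was at 106 to 134 FPKM (median 130) in GV oocytes and at 11.5 to 26.9 (median 18.6) in MII oocytes, a log2 fold change of -2.51 (SE 0.19, adjusted p = 5.49e-09). Kif9, known from the sperm flagellum, went from 6.43 to 14.1 FPKM (median 10.9) to 0.72 to 2.48 (median 0.83), a log2 fold change of -3.02 (SE 0.33, adjusted p = 4.89e-07). Both were high in every GV oocyte and low in every MII oocyte. Kif27, a paralog of the Hedgehog regulator Kif7, was rare throughout, with 7 to 23 counts in GV and 0 to 8 in MII oocytes, and had a fitted log2 fold change of -3.20 (SE 0.80, adjusted p = 0.00196).

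The riser was Kif3a, the kinesin-2 subunit of intraflagellar transport, at 30.8 to 37.6 FPKM (median 36.6) at GV and 55.3 to 70.3 (median 64.9) at MII, with a log2 fold change of 0.82 (SE 0.13, adjusted p = 2.60e-05). Kif3b, with which it pairs, stayed between 0.50 and 2.12 FPKM over all libraries and was not called (log2 fold change 0.49, SE 0.35, adjusted p = 0.227). Kifap3, the third subunit of that motor, was at a mean of 0.618 ± 0.357 FPKM (SD, n = 6) in GV and 0.521 ± 0.290 (SD, n = 7) in MII oocytes. Per length, Kif3a mRNA was thus far above that of Kif3b and of Kifap3, which overlapped. Among the remaining kinesins only Kif21a, which limits microtubule growth, was called, from 0 to 13 counts a library at GV to 9 to 43 at MII, with a fitted log2 fold change of 2.25 (SE 0.66, adjusted p = 0.00618).

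**Figure D2:**
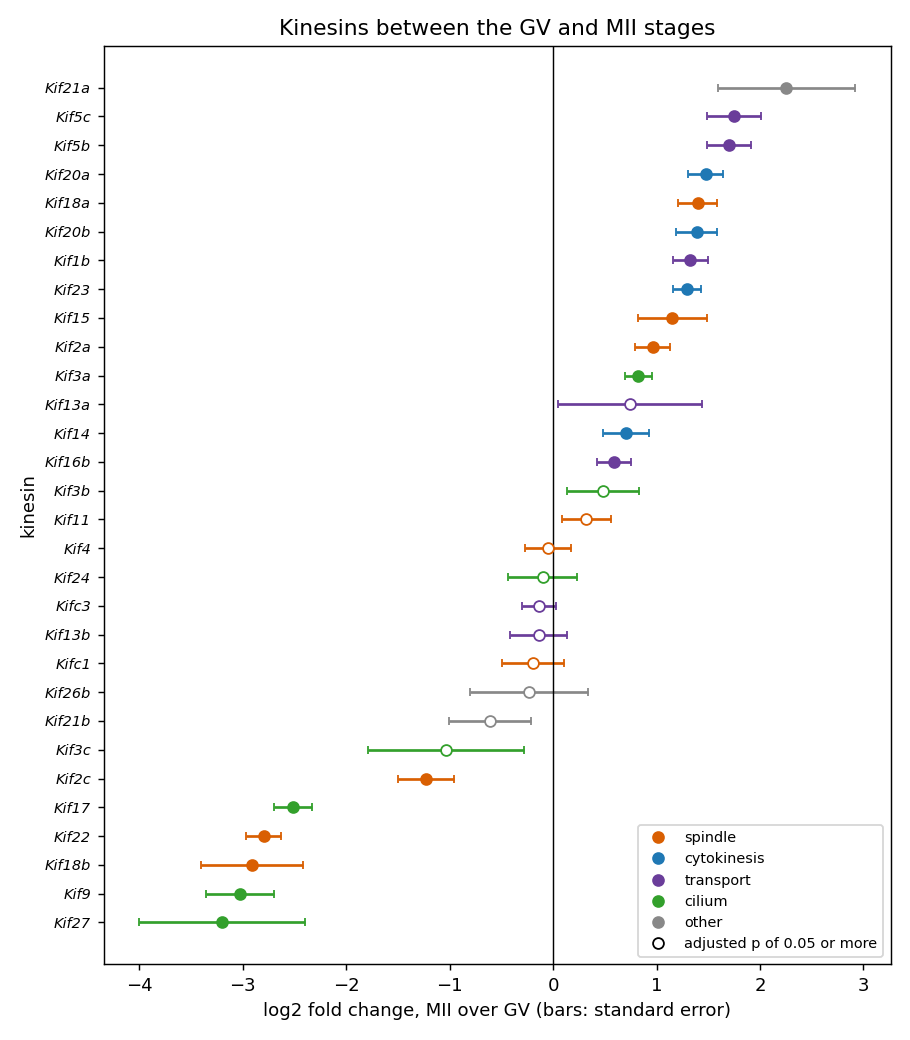
Log2 fold change of MII over GV oocytes for the 30 tested kinesins, with bars of 1 standard error, from edgeR's fit of all 13 libraries; colours give the class and open points have an adjusted p of 0.05 or more. The 4 cytokinesis kinesins lie between 0.70 and 1.47, while Kif22, Kif17, Kif9, Kif18b and Kif27 lie at -2.51 or below.

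These changes altered the make-up of the kinesin mRNA more than its sum. The summed FPKM of all 41 kinesins was 1229 to 1521 in GV and 1776 to 1974 in MII oocytes. The cytokinesis class was at 521 to 752 FPKM in GV and 1379 to 1558 in MII oocytes, and the spindle class at 418 to 546 and 147 to 311. The cilium class stood at 163 to 192 in GV and at 78.5 to 104 in MII oocytes, and the transport class at 52.5 to 79.2 and 74.1 to 104. Kif23 alone made up 37.1% ± 3.44 (SD, n = 3) of the kinesin FPKM of NSN oocytes at GV and 62.3% ± 3.40 (SD, n = 3) of that of NSN-MII oocytes, and in SN oocytes 38.1% ± 1.15 (SD, n = 3) at GV and 61.6% ± 1.197 (SD, n = 4) at MII. Kif22 went from 18.6% ± 2.03 to 1.41% ± 0.503 in NSN oocytes and from 18.2% ± 0.306 to 2.24% ± 0.0360 in SN oocytes, with the same numbers of libraries. These sums are descriptions and weigh genes by the lengths above.

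**Figure D3:**
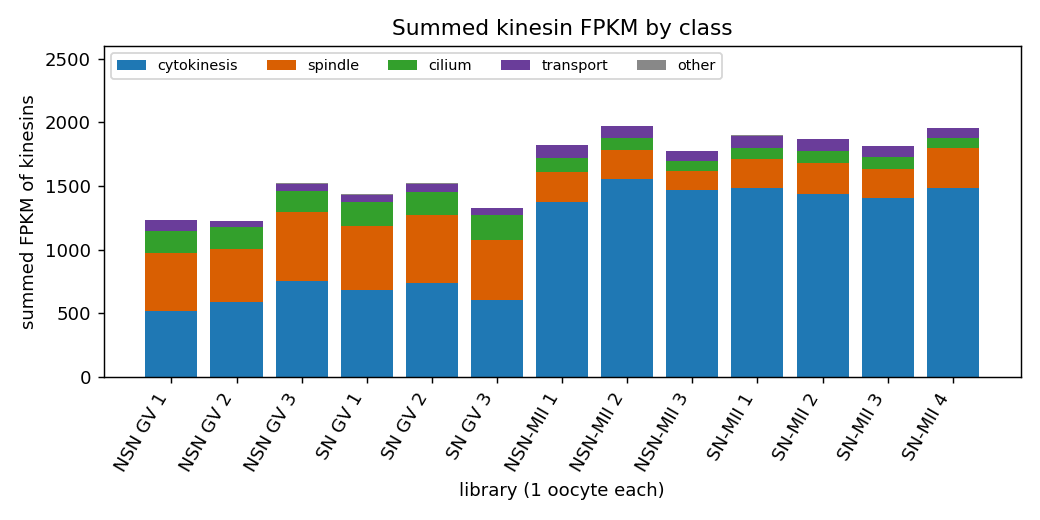
Summed FPKM of the kinesins in each single-oocyte library, stacked by class, with libraries grouped by type and stage. The cytokinesis share, mostly Kif23, is 521 to 752 FPKM in GV and 1379 to 1558 in MII oocytes, and the spindle share is lower in every MII library than in any GV library.

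The same stage contrast was then read within each type. In SN oocytes 15 of 30 kinesins were called, 9 higher and 6 lower, and in NSN oocytes 18, 13 higher and 5 lower, where 56.3% of all genes were called in either type, 25.1% higher and 31.2% lower in SN and 25.5% higher and 30.8% lower in NSN oocytes. The 6 that fell in SN oocytes were Kif17, Kif18b, Kif22, Kif27, Kif2c and Kif9, and all of them except Kif27 were also called in NSN oocytes. Kif14, Kif15, Kif16b and Kif21a were called in NSN oocytes and not in SN oocytes, but whether the 2 stage changes differ is a question for the interaction. The limit set by the count filter for Kif21a and Kif27 holds for these counts as well.

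By the interaction of type and stage 0 of 30 kinesins were called with edgeR's quasi-likelihood test, against 0.0176% of all genes, and 0 with DESeq2, which called 0.343% of 11370 genes. At an unadjusted p under 0.05 there were 2, Kif14 and Kif27, against 5.33% of all genes. The stage change of Kif14 was 1.28 (SE 0.33) in NSN and 0.13 (SE 0.31) in SN oocytes on the log2 scale, a difference of 1.15 (SE 0.45, adjusted p = 0.798). Kif27 had 16, 9 and 23 counts in SN GV and 1, 0, 0 and 0 in SN-MII oocytes, against 7, 13 and 9 in NSN GV and 1, 2 and 8 in NSN-MII oocytes. With a floor of 3 counts a library, Kif27 was at least 4.92-fold lower in SN-MII than in SN GV oocytes, and its adjusted p for the interaction was 0.792. Since Kif27 passed the count filter at GV and not at MII, that fold is a description only.

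Before maturation, in the comparison the study set out from, no kinesin passed the adjusted threshold between NSN and SN oocytes. Of 29 kinesins tested 0 were called by edgeR's quasi-likelihood test and 0 by DESeq2, as were 0% of 10839 genes by edgeR. An unadjusted p under 0.05 was reached by 1 kinesin, Kif13a, with 1.75% of all genes, and it also passed a 1.5-fold change, with 1.54% of all genes. The 29 log2 fold changes were positive in 11 (37.9%, against 51.1% of all genes) and negative in 18, with a median of -0.09, against a median of 0.01 over all genes.

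Kif13a, a motor of endosomes and vesicles, had CPM values of 1.68, 0.50 and 3.03 in NSN GV and of 3.95, 5.56 and 7.78 in SN GV oocytes. The groups did not overlap in CPM, though in FPKM the third NSN oocyte (1.26) was above the first SN oocyte (1.21). The log2 fold change of NSN over SN was -1.71 (SE 0.67, unadjusted p = 0.0317, adjusted p = 0.999975). In MII oocytes the gene spread widely, with 19.5, 4.08 and 0.51 CPM in NSN-MII and 6.10, 6.55, 0.53 and 0.82 in SN-MII oocytes, and its log2 fold change there was 1.22 (SE 0.998). The study lists Kif13a, Kif11, Kif14 and Kif22 among genes that changed between the types in these libraries, so their direction here is not independent evidence.

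In CPM scaled within the GV stage, 5 of the 29 kinesins did not overlap between the GV types, with 6.57% of all genes. They were Kif13a, Kif2a, Kif1b and Kif17, lower in each NSN oocyte, and Kifc1, higher in each NSN oocyte. This depended on the scale. When the GV libraries were scaled together with the MII libraries, the types overlapped for Kif17, at 339, 441 and 355 CPM in NSN and 455, 441 and 418 in SN oocytes, and for Kif1b, at 27.8, 29.6 and 36.6 CPM in NSN and 37.5, 52.4 and 35.4 in SN oocytes. In FPKM, Kif13a, Kif2a, Kif1b and Kifc1 overlapped and Kif17 did not. Of the 5 kinesins with the highest mean FPKM, none passed an unadjusted p under 0.05. The log2 fold change of Kif23 was -0.16 (95% interval -0.57 to 0.25), that of Kif22 -0.09 (-0.50 to 0.33), that of Kif20a -0.01 (-0.54 to 0.52), that of Kif20b -0.08 (-0.69 to 0.53) and that of Kif2c 0.06 (-0.27 to 0.39). Kif4 had a wider interval, at -0.29 (-1.18 to 0.60), since the second NSN GV library had 24.0 FPKM where the other 5 GV libraries had 77.4 to 100.3.

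At the MII stage 0 of 28 kinesins were called between NSN-MII and SN-MII oocytes by edgeR's quasi-likelihood test, where 0.259% of 10028 genes were called, while DESeq2 called 2, Kif14 and Kif22, and 2.5% of the 8663 genes to which it gave an adjusted p. An unadjusted p under 0.05 was reached by 3, all with a change of at least 1.5-fold, Kif22, Kif11 and Kif14, or 3 of 28 where 9.38% of all genes had such a p and 7.17% also had the fold. The same 3 were the ones whose groups did not overlap, as for 10.2% of all genes. Of the 28 log2 fold changes 14 were positive and 14 negative, with 52.1% of all genes positive.

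Kif22 was at 34.3, 29.2 and 15.7 FPKM in NSN-MII and at 42.8, 41.0, 41.3 and 43.7 in SN-MII oocytes. Every NSN-MII oocyte was below every SN-MII oocyte, and the SN-MII oocytes were close together. The log2 fold change was -0.75 (SE 0.22, unadjusted p = 0.00476, adjusted p = 0.222 with edgeR and 0.0446 with DESeq2). Without the third NSN-MII library it was -0.55 (adjusted p = 0.127).

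Kif14 was at 63.5, 37.8 and 24.1 FPKM in NSN-MII and at 21.5, 18.5, 14.7 and 12.7 in SN-MII oocytes. It went the other way, each NSN-MII oocyte being higher than each SN-MII oocyte. The log2 fold change was 0.86 (SE 0.24, unadjusted p = 0.00389, adjusted p = 0.205 with edgeR and 0.0419 with DESeq2). Without the third NSN-MII library it was 1.08 and was called (adjusted p = 0.0205), and without the first it was 0.52 (adjusted p = 0.557). At GV the types overlapped, at 17.2, 6.38 and 16.02 FPKM in NSN and 18.6, 14.1 and 15.97 in SN oocytes.

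Kif11 was at 10.8, 9.28 and 3.74 FPKM in NSN-MII and at 11.5, 11.9, 10.8 and 17.1 in SN-MII oocytes. The highest NSN-MII and the lowest SN-MII oocyte were almost equal in FPKM, and in CPM the highest NSN-MII oocyte had 54.5 and the lowest SN-MII oocyte 60.2. The log2 fold change was -0.79 (SE 0.31, unadjusted p = 0.0245, adjusted p = 0.411). It was -0.50 (adjusted p = 0.312) without the third NSN-MII library, and -0.58 (adjusted p = 0.700) without the fourth SN-MII library.

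The other abundant kinesins had no unadjusted p under 0.05 between NSN-MII and SN-MII oocytes. Kif23 had a log2 fold change of -0.07 (95% interval -0.36 to 0.22), Kif20a -0.07 (-0.42 to 0.28), Kif20b -0.19 (-0.62 to 0.25), Kif4 -0.28 (-0.65 to 0.10), Kif17 0.09 (-0.51 to 0.69) and Kif3a 0.03 (-0.30 to 0.36). Kif2c had the widest interval of these, -0.57 (-1.52 to 0.38), with 47.0, 49.0 and 10.1 FPKM in NSN-MII and 30.7, 54.0, 36.7 and 72.8 in SN-MII oocytes. The largest positive log2 fold changes were those of Kif13a, Kif21b (1.02, SE 0.57) and Kif14, and the largest negative ones those of Kif26b (-1.49, SE 0.77), Kif11 and Kif22. At GV, beside Kif13a, the largest were Kif3c at 1.19 (SE 0.72), Kifc1 at 0.65 (SE 0.34), Kif18b at 0.50 (SE 0.33), Kif27 at -0.75 (SE 0.67) and Kif18a at -0.45 (SE 0.30), and none of these reached an unadjusted p under 0.05.

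**Figure D4:**
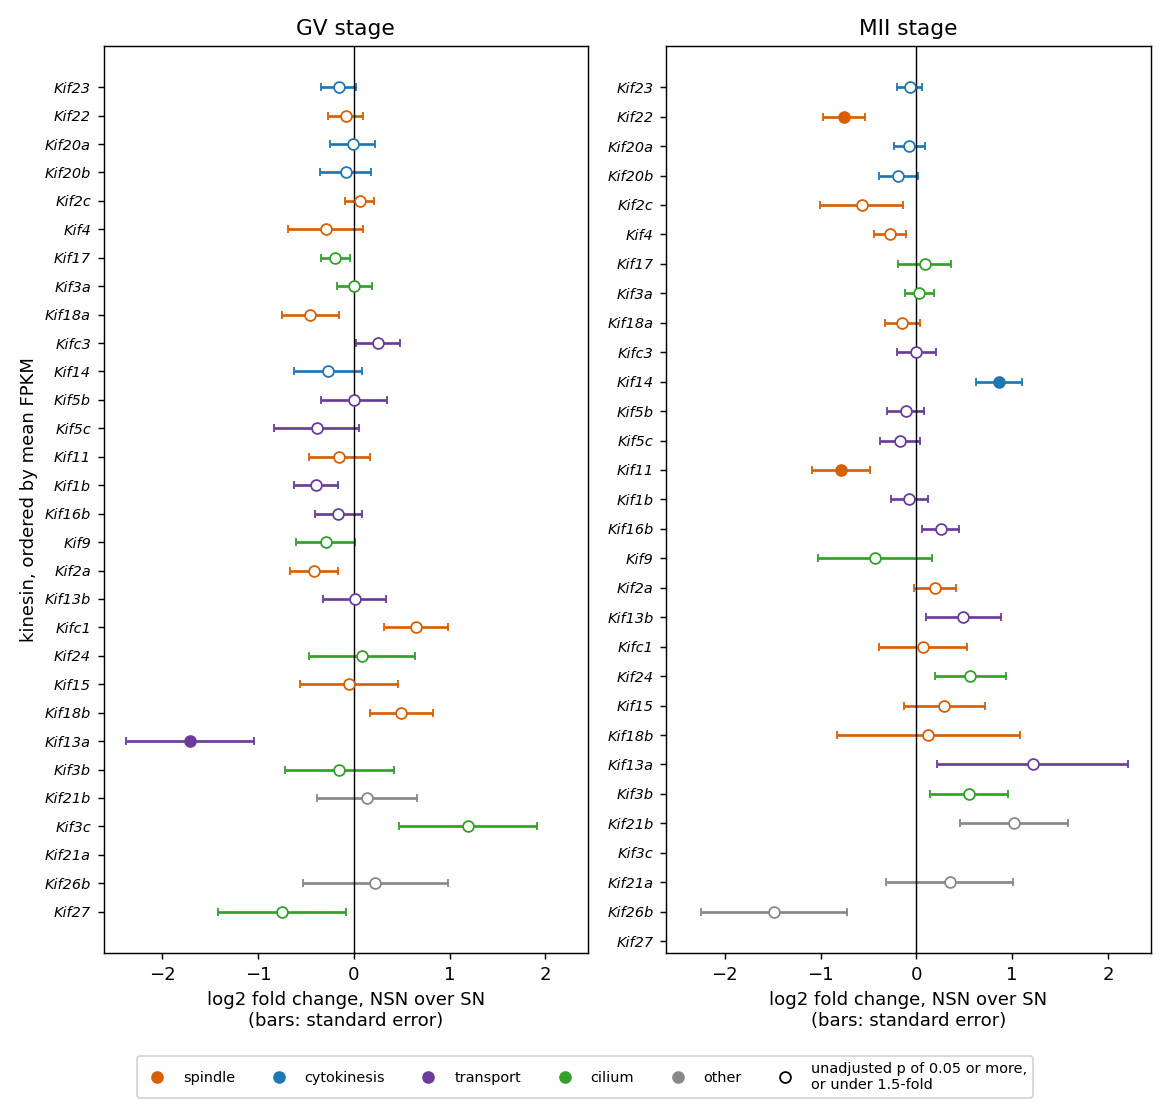
Log2 fold change of NSN over SN oocytes for each tested kinesin, at GV on the left and at MII on the right, with bars of 1 standard error; filled points changed at least 1.5-fold with an unadjusted p under 0.05, and a gene without a point was not tested at that stage. Kif13a is filled at GV, and Kif22, Kif11 and Kif14 at MII, while none passed the adjusted threshold.

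**Figure D5:**
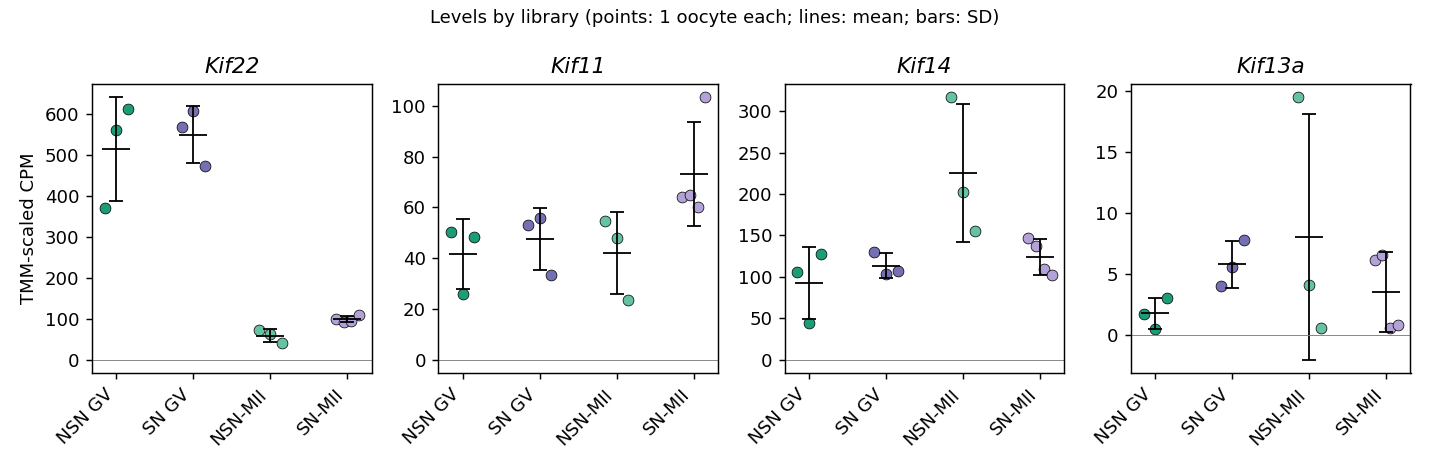
TMM-scaled CPM of Kif22, Kif11, Kif14 and Kif13a in every library, with 1 point for each oocyte, the mean as a line and the SD as a bar, on a separate linear axis for each gene. Kif22 drops from GV to MII in both types, Kif14 is highest in the 3 NSN-MII oocytes, and the NSN-MII oocytes of Kif13a run from 0.51 to 19.5.

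The 25 partners of kinesins (light chains, adaptors and spindle proteins that work with them) came from a list of general knowledge. Of those tested, 0 of 21 were called between the types at GV and 0 of 22 at MII, by edgeR's quasi-likelihood test and by DESeq2 alike. Of all genes edgeR called 0% at GV and 0.259% at MII, and DESeq2 0% and 2.5%. An unadjusted p under 0.05 with edgeR was reached by 0 partners at either stage, against 1.75% of all genes at GV and 9.38% at MII. Between GV and MII 10 of 23 were higher and 4 lower, or 60.9% called against 68.6% of all genes. The largest rises were those of Cenpe (1.55, SE 0.20), a kinetochore kinesin, Cit (1.38, SE 0.16), the citron kinase that binds Kif14, and Ect2 (1.35, SE 0.22), the exchange factor recruited by centralspindlin. Cenpe was at 22.6 to 43.7 FPKM in GV and 68.6 to 85.8 in MII oocytes, and Ect2 at 30.6 to 76.0 and 107 to 138. The largest falls were those of Nusap1 (-2.51, SE 0.18), a microtubule-bundling protein of the spindle, Map7d1 (-2.28, SE 0.77), and Klc1 (-1.29, SE 0.23), a light chain of the Kif5 motors. Map7d1 was rare, with 7 to 59 counts a library in GV and 0 to 10 in MII oocytes, and its stages overlapped. Nusap1 was at 111 to 186 FPKM in GV and 20.9 to 39.2 in MII oocytes, and Klc1 at 8.43 to 17.2 and 2.89 to 6.70. Klc1 thus fell while the heavy chains Kif5b and Kif5c rose. The light chains Klc2 (-0.55, SE 0.33) and Klc4 (-0.69, SE 0.37) were not called, and Klc3 was not tested.

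Some of these values share reads with other genes, and the kit did not mark strand in the study's description. Exons of Kif20a overlap Cdc23 over 29.3% of their bases, those of Kif2a overlap Dimt1 over 19.2% and those of Kif4 overlap Pdzd11 over 15.1%, each on the opposite strand. Estimated counts of Kif20a, Kif2a and Kif4 were not whole in any of the 13 libraries, and those of Kifc1, which has the near-identical copy Kifc5b, were not whole in 10.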

How the data were processed

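Single-oocyte cDNA was made by the SMART-seq2 protocol, tagmented with Tn5 and sequenced on HiSeq X-10. Per the submitters' processing notes, Trim Galore 0.4.4, Bowtie2 2.3.5 and RSEM 1.2.28 were used on mm10. The authors deposited estimated counts per gene, 1 table a stage, in which RSEM shares reads out between genes, and FPKM values of all libraries in 1 table. DESeq2 1.20.0 is also named in those notes, and no column of its results was among the files.

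Estimated counts were rounded, filtered with filterByExpr, scaled by TMM and tested with edgeR 4.0.16 (R 4.3.3) by the quasi-likelihood test with Benjamini-Hochberg adjustment over all genes that passed. Types were compared within a stage, stages over all 13 libraries. The common biological coefficient of variation was 0.352 at GV, 0.344 at MII and 0.364 over all libraries. CPM values used TMM scaling. DESeq2 1.42.0, limma 3.58.1 (trend, on log2 of FPKM plus 1 or 0.1, at a mean FPKM of at least 1), other scalings, no filter and leaving out each library served as alternatives, and a robust spread estimate was chosen as a further alternative once the data had been seen. The edgeR steps were checked on simulated counts.

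Kinesins, their classes, their partners and the marker lists were chosen with earlier results of these data known. Named kinesins were those called in any comparison, those in the study's own lists, all spindle and cytokinesis kinesins, the 5 with the highest mean FPKM and the 3 with the largest changes each way. Other kinesins are named to account for every gene. Library totals of 7140416 to 8846287 cover counting error only. Coordinates come from GENCODE M21 (GRCm38, the same assembly as mm10) by symbol. No pair of libraries within a group was a copy, and pairs across groups were not checked. Raw reads and images were not analysed here.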

Additional observations from a re-analysis of the deposited data

Results flagged for a closer look

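In the 4 SN-MII oocytes, the only group large enough to be looked at in this way, 3 of 30 kinesins had 1 oocyte set apart from the rest by Dixon's criterion (critical value 0.829), where chance gives about 1 in 20 groups. Kif11 was at 17.14 FPKM in the fourth SN-MII oocyte against 10.8 to 11.9 in the other 3. Kif3b was at 2.09 FPKM in the first SN-MII oocyte against 0.74 to 0.92. Kif27 was at 0.04 FPKM in the first SN-MII oocyte, which is 1 count, against 0 in the other 3. With the others at 0, a single count always meets the criterion, so the chance rate above does not apply to Kif27.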

How the results depend on the processing

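The fold changes of kinesins called between stages kept their direction under every alternative that included the gene. So did those of kinesins with an unadjusted p under 0.05 and 1.5-fold between types or in the interaction. Kif21a and Kif27, at a mean of 0.33 and 0.22 FPKM, were below the limit of the limma fits and not in them. Others near 0 did not always: that of Kif4 between stages, -0.05, was 0.16 without NSN GV oocyte 3. Most counts stayed within 1.5 times. Between NSN-MII and SN-MII oocytes DESeq2 called 2 kinesins (Kif14, Kif22) in place of 0, and leaving out 1 library gave 0 to 1 (1 without the third NSN-MII oocyte, Kif14). With an unadjusted p under 0.05 and 1.5-fold, GV had 1 kinesin, 2 by limma on log2(FPKM + 1) (Kif13a, Kif15), 0 with all 13 libraries in 1 fit and 0 to 5 without 1 library (5 without NSN GV oocyte 3, and 0 without SN GV oocyte 2, without SN GV oocyte 3, without NSN GV oocyte 1 or without NSN GV oocyte 2). At MII the same count was 3, and 2 to 5 without 1 library (5 without the first SN-MII oocyte, 2 without the first NSN-MII oocyte). Partners lower at MII numbered 4, and 2 by limma on log2(FPKM + 0.1), with 3 to 5 without 1 library. Stage counts without 1 library were 12 to 14 higher and 6 to 7 lower, 13 to 15 called in SN and 17 to 19 in NSN oocytes. Without the third NSN-MII library, counts other than those named stayed within 1.5 times. Of single genes, Kif15 and Kif16b lost their stage call by both limma fits and Kif14 lost it without the first NSN-MII oocyte. The cause was not tested.

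The labels do not say whether oocytes of the same replicate number belong together, and the main tests did not pair them. Deviations of same-numbered oocytes correlated at -0.46 to -0.21 at GV and -0.12 to 0.10 at MII, and 0 of 6 GV and 2 of 6 MII oocytes correlated best with their own number. With so few oocytes a group, these correlations cannot tell whether oocytes shared a female or a collection. With the number as a replicate block, 13 kinesins were higher and 6 lower at MII, 0 were called between types at either stage, 14 were called in SN and 18 in NSN oocytes, and partners numbered 10 higher and 4 lower. The block moved no count by over 1.5 times.

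With 3 or 4 oocytes a group, the spread between oocytes set the intervals given for each kinesin. Kinesins with a few counts a library, such as Kif27 and Kif21a, are limited by depth as well. The median log2 fold change of all genes between stages was -0.10 with TMM and -0.14 with DESeq2's size factors.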
